A study of Mus musculus with 6 samples.

Results

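Expression of 56 genes of DNA replication and nucleotide synthesis was examined in enterospheres of newborn mice. These are free-floating spheres grown, by the methods, from dissociated muscle layers of the small intestine with their myenteric plexus. They contain neural progenitors of the enteric nervous system together with other cells. The genes were named by function, and for each the transcript cluster (the probe set of 1 gene on the array) annotated with that symbol alone was taken; where a gene had several, the brightest on average was kept. All 56 genes were measured, of 19938 genes in all. The differentiation group held 3 samples, which spent 9 days in proliferation medium and then 2 days in differentiation medium, and the proliferation group held 3 samples, which spent all 11 days in proliferation medium. Both groups came from untreated C57BL/6 mice taken at P0, carried no transgene or deletion, and shared the first 9 days. The proliferation medium was DMEM/F12 with N2, antibiotics and glutamine, supplemented with B27 (by the methods, a single time before the cells were seeded), and epidermal growth factor (EGF) and fibroblast growth factor (FGF) were added daily. The differentiation medium, as the labels list it, held N2, antibiotics, glutamine and ascorbic acid-2-phosphate, and no EGF or FGF. Each sample was a pool of animals (3 mice by the labels, 2 pups of a litter by the methods) and only floating spheres were picked. The labels do not say whether the replicates were separate cultures, which the methods describe as independent experiments, so p-values measure the spread between these samples. RNA was read on Mouse Gene 1.0 ST arrays, and all values are log2 RMA values, on which a difference of 1 is a 2-fold change.

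Before a cell divides, its DNA is copied once. The origin recognition complex marks start sites, CDC6 and CDT1 load the MCM helicase ring there (licensing), and the kinase of CDC7 and DBF4 then starts the forks. At each fork the helicase of CDC45, MCM and GINS unwinds the DNA, polymerases alpha, epsilon and delta copy it, and the clamp PCNA, placed by the RFC loader, holds them on the template. Ribonucleotide reductase, thymidylate synthase and the nucleoside kinases supply the deoxynucleotides, and CAF-1, DNMT1 and UHRF1 rebuild nucleosomes and methylation on the daughter strands. Many of these genes are transcribed at the entry into S phase under E2F factors, and most are low in cells that have left the cell cycle.

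The arrays were alike as a whole, with a lowest correlation between arrays of 0.983 and a median within-group SD of 0.14 over all clusters. Among the replication genes, however, proliferation replicate 2 stood apart. It was the highest of the 6 arrays for 54 of the 56 genes, and it lay above proliferation replicate 1 for all 56, by a median of 0.47, against a median of -0.06 over all genes. Proliferation replicate 1 was the lowest of its group for 50 of them. The median SD of the genes was 0.12 in differentiation and 0.25 in proliferation, against 0.11 in each group over all genes, and 50 genes had the larger SD in proliferation. Averaged over the 56 genes and set to the proliferation mean, the differentiation arrays were at -0.75, -0.64 and -0.70 and the proliferation arrays at -0.23, 0.28 and -0.05. The groups therefore did not overlap on this average, although the proliferation arrays were spread over much of the distance between the groups. Some markers of other cells were lowest in replicate 2 within the proliferation group. That array was lowest for 5 of 5 neuron, 5 of 5 fibroblast, 3 of 3 interstitial cell of Cajal and 3 of 4 macrophage markers. It was lowest for 2 of 5 smooth muscle, 2 of 3 mesothelium, 1 of 6 progenitor and glia, 0 of 3 endothelium and 0 of 3 epithelium markers. The part of cell makeup in the spread was not tested.

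Of the 37 cell type markers measured of 39 listed, 2 fell and 6 rose in differentiation, against 2.97% and 2.94% of all genes. The progenitor genes Sox10 and Ret were present throughout: Sox10 averaged 11.66 in differentiation and 11.37 in proliferation, and Ret 11.22 in differentiation and 11.40 in proliferation. Ednrb, of the same class, averaged 10.59 in differentiation and 11.29 in proliferation. Its change of -0.70 did not pass (limma adjusted p = 0.171), although all differentiation arrays were lower. The intermediate filament genes Nes and Gfap rose by 1.27 and 1.16, Tubb3 by 0.98, and the smooth muscle genes Tagln, Acta2 and Cnn1 by 1.44, 0.76 and 0.72. Ano1, a chloride channel of interstitial cells of Cajal, fell by 1.43 and the glial gene S100b fell by 0.74. The log2 of the summed level of the 6 progenitor and glia markers ranged over 13.56 to 13.58 in differentiation and 13.19 to 13.52 in proliferation. That of the 5 neuron markers was 13.08 to 13.25 in differentiation and 12.67 to 13.19 in proliferation. That of the 5 smooth muscle markers was higher in differentiation (10.74 to 10.88) than in proliferation (10.10 to 10.14), and that of the 3 markers of interstitial cells lower (12.06 to 12.17 in differentiation and 12.48 to 12.78 in proliferation). The 5 fibroblast markers gave 13.41 to 13.52 in differentiation and 13.05 to 13.69 in proliferation. The macrophage, endothelium, epithelium and mesothelium sums were dim, with 7.24 to 7.93 in differentiation and 7.03 to 8.29 in proliferation. In such mixed samples, fewer dividing cells and less RNA of these genes per cell cannot be told apart, and the part of the marker changes in the results was not tested.

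Of the 56 genes, 21 fell in differentiation, 0 rose and 35 did not pass the test (limma, Benjamini-Hochberg adjusted p under 0.05 over all 35556 clusters). The share that fell was 37.5%, against 2.97% of all genes, while 2.94% of all genes rose. At an unadjusted p under 0.05, 44 were lower and 0 higher by limma (9.64% of all genes were lower and 9.49% higher), and 41 were lower and 0 higher by the methods' t-test (9.28% and 10.2% of all genes). All 3 differentiation arrays lay below all 3 proliferation arrays in 44 genes (78.6%, against 12.9% of all genes) and overlapped them in 12. The log2 fold change was negative for 55 genes, with a median of -0.60 against 0.02 over all genes and a range of -2.07 to 0.02. Of the 11 genes that were at least 2-fold lower, 9 fell. The changes were of 1 direction in all genes but Pold3, and mostly below 2-fold. The count rested on few arrays, as did that of all clusters called in either direction, 1459 with every array kept. Without proliferation replicate 2, the array that stood apart, 17 genes fell with a median of -0.47, and 1213 clusters were called. Leaving out differentiation replicate 1, 2 or 3 gave 3, 10 or 13 genes that fell, with medians of -0.58, -0.61 and -0.61. The clusters called were then 294, 683 and 850. Leaving out proliferation replicate 1 or 3 gave 25 or 8 genes, with medians of -0.68 and -0.62, and 1297 or 480 clusters.

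**Figure D1:**
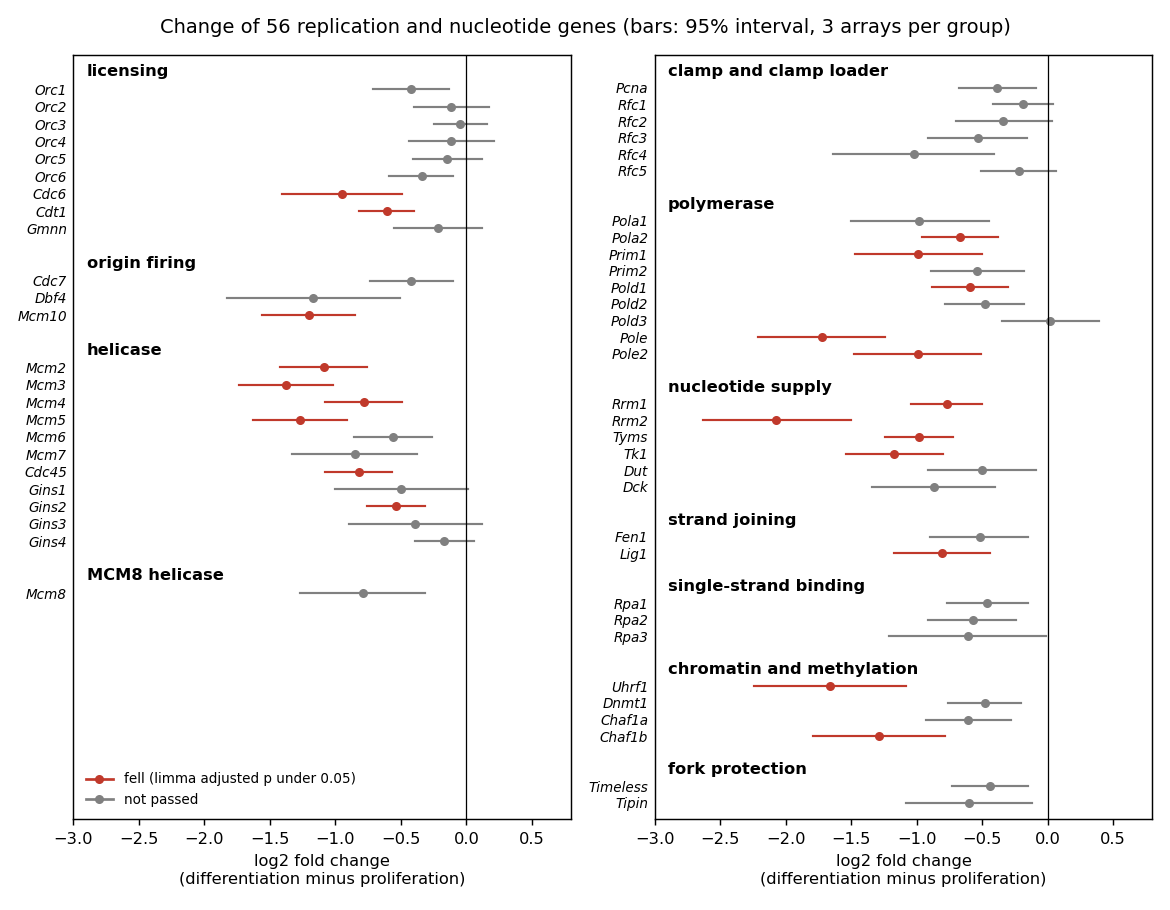
Log2 fold change, differentiation minus proliferation, of each of the 56 genes with its 95% interval from limma, grouped by role and coloured by whether the gene passed the test. All points but that of Pold3 (0.02) lie left of 0, and Rrm2 (-2.07), Pole (-1.72) and Uhrf1 (-1.66) lie farthest.

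Upstream sequence was compared as a feature that the choice of genes did not use. Promoters of 47 of the 56 genes were found in RefSeq (GRCm38.p6), taken as the 250 bases before the first listed start, and Gins1, Gins2, Gins4, Mcm4, Rfc2, Prim2, Gmnn, Tipin and Pole had no entry. The letters bound by E2F factors were searched on both strands as TTTCCCGC, TTTCGCGC, TTTGCCGC or TTTGGCGC. They occurred in 9 of 47 promoters (19.1%), those of Cdc6, Orc1, Orc3, Mcm5, Mcm6, Mcm7, Gins3, Pola1 and Rfc3, against 1.91% of all 27025 promoters in the set and 2.54% of those of genes on the array. They were in 2 of the 18 promoters of genes that fell (11.1%) and in 7 of the 29 of genes that did not pass the test (24.1%). The CCAAT box (CCAAT) was in 25 promoters (53.2%, against 34.5% of all), and the cell cycle homology region (TTTGAA) in 6 (12.8%, against 16.3%). No E2F match overlapped either of these. Within 150 bases of the start the shares were 17.0% against 1.26% for E2F, 46.8% against 25.3% for CCAAT and 6.38% against 9.24% for TTTGAA. A match describes letters alone, and other spellings of the site were not searched. The stretches printed with the roles are the 170 bases before the start, read 5′ to 3′ on the gene's strand, of the gene with the largest decrease and the gene with the smallest change in each of 4 roles, with E2F matches in capitals. The letters stood in 1 of the 4 with the largest decrease and in 2 of the 4 with the smallest change. Because Pole and Gins4 had no promoter entry, Pole2 stood in for Pole among the former. Gins3, which held a match, stood in for Gins4 among the latter.

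Among the 9 licensing genes 2 fell, the loading factors Cdc6 and Cdt1, and the median change was -0.22. Cdc6, the ATPase that brings the helicase to the origin, read 5.93, 5.66 and 6.32 in differentiation and 6.69, 7.16 and 6.92 in proliferation. It was 1.94-fold lower, a log2 change of -0.95 ± 0.19 (SE, n = 3 each) with an adjusted p of 0.0464, and the groups did not overlap. Cdt1, its partner in loading, read 7.68, 7.69 and 7.57 in differentiation and 8.17, 8.37 and 8.23 in proliferation. Replicates were tight here, and the change was -0.61 ± 0.09 with an adjusted p of 0.0153. Geminin (Gmnn), the inhibitor that binds CDT1, read 4.79, 4.58 and 4.96 in differentiation and 4.90, 5.23 and 4.86 in proliferation. These values overlapped, at a change of -0.22 with an adjusted p of 0.544, and lay in both groups below the median cluster mean of 6.15, as did those of Orc1 and Gins1 alone among the 56 genes. Of the subunits of the origin recognition complex none passed the test. Orc1, the subunit whose level follows the cell cycle in human cells, read 5.03, 4.79 and 5.00 in differentiation and 5.15, 5.45 and 5.47 in proliferation, all lower in differentiation at -0.42 with an adjusted p of 0.14. Orc2 read 8.38, 8.67 and 8.40 in differentiation and 8.48, 8.77 and 8.56 in proliferation, and Orc3 read 9.90, 9.98 and 9.83 in differentiation and 9.88, 10.05 and 9.92 in proliferation. Both overlapped between groups, with changes of -0.12 and -0.05, and the 95% interval of Orc3 ran from -0.25 to 0.16. Orc4 (-0.12) and Orc5 (-0.15) also overlapped, and Orc6 (-0.34) was lower in all differentiation arrays with an adjusted p of 0.146. The call of Cdc6 ended when any array but differentiation replicate 3 was left out (adjusted p up to 0.184), and that of Cdt1 without proliferation replicate 3 or differentiation replicate 1 or 2 (up to 0.0816). The promoter stretch of Cdc6 (GRCm38.p6, chr11:98907981-98908150, plus strand) held E2F letters 138 bases before the start and that of Orc3 (chr4:34614943-34615112, minus strand) 41 bases before it.
Cdc6: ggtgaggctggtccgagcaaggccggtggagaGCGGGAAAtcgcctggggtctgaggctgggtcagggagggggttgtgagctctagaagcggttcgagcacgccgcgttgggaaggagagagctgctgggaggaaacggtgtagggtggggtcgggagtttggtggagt
Orc3: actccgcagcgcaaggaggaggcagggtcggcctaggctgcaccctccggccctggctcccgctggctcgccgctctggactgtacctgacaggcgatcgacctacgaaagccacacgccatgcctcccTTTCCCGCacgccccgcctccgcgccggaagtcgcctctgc

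Of the 3 genes of origin firing, Mcm10 fell. MCM10, which helps turn the loaded helicase into an active fork, had values of 6.27, 6.32 and 6.39 in differentiation and 7.30, 7.86 and 7.44 in proliferation. The change was -1.20 ± 0.15 (SE, n = 3 each), 2.30-fold lower, with an adjusted p of 0.00896, and the call ended without differentiation replicate 1 (0.0601). Dbf4, which activates the CDC7 kinase, was similar in size at -1.17 but more variable, with 6.37, 6.51 and 6.26 in differentiation and 7.06, 8.21 and 7.38 in proliferation, and did not pass (adjusted p = 0.0768). Cdc7, the kinase itself, read 5.95, 6.11 and 5.88 in differentiation and 6.17, 6.62 and 6.42 in proliferation, a change of -0.42 with an adjusted p of 0.177. All 3 genes were lower in every differentiation array than in any proliferation array, as were 12.9% of all genes.

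The helicase group of 11 genes, the MCM2 to MCM7 ring with its partners CDC45 and GINS, had 6 genes that fell, Mcm2, Mcm3, Mcm4, Mcm5, Cdc45 and Gins2, and a median change of -0.78. Mcm3 changed most, with 7.01, 7.26 and 7.17 in differentiation and 8.31, 8.84 and 8.44 in proliferation, a change of -1.38 ± 0.15 (SE, n = 3 each), 2.60-fold lower (adjusted p = 0.00645). The lowest proliferation array was more than 1 log2 unit above the highest differentiation array. Mcm5 had 8.48, 8.57 and 8.69 in differentiation and 9.60, 10.16 and 9.79 in proliferation, a change of -1.27 (adjusted p = 0.00821). Mcm2 had 8.25, 8.46 and 8.52 in differentiation and 9.32, 9.75 and 9.42 in proliferation, a change of -1.09 (adjusted p = 0.00973). These subunits were all at least 2-fold lower. Mcm4 (-0.78, adjusted p = 0.0203) fell by less, and the remaining ring genes Mcm7 (-0.85, adjusted p = 0.073) and Mcm6 (-0.56, adjusted p = 0.0651) were lower in all differentiation arrays without passing. Cdc45, which joins the ring when the fork fires, had 6.34, 6.43 and 6.51 in differentiation and 7.19, 7.43 and 7.14 in proliferation, a change of -0.82 (adjusted p = 0.0104). The 4 GINS genes, whose products form a complex of equal parts, had changes from -0.54 to -0.17. Differences between them were not tested. Gins2 fell by 0.54 (adjusted p = 0.0251), with 7.72, 7.57 and 7.49 in differentiation and 8.13, 8.19 and 8.07 in proliferation. Gins4 read 9.11, 9.32 and 9.25 in differentiation and 9.30, 9.51 and 9.37 in proliferation, an overlap with a change of -0.17, and Gins1 (-0.50) and Gins3 (-0.39) overlapped as well. Mcm3 passed the test with each array left out in turn (adjusted p up to 0.0446). The calls of Mcm2, Mcm5 and Cdc45 ended without differentiation replicate 1 (0.0596, 0.0561 and 0.0674), that of Mcm4 without proliferation replicate 3 or differentiation replicate 1 or 3 (up to 0.106), and that of Gins2 without any single array (0.0615 to 0.0902).

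Upstream of Mcm3 (GRCm38.p6, chr1:20820313-20820482, minus strand), the gene of the group with the largest decrease, no E2F letters were found. Gins3 (chr8:95633389-95633558, plus strand), shown as the gene with the smallest change that had a promoter entry, held them 41 bases before the start. Mcm5 (chr8:75109339-75109508, plus strand) and Mcm6 (chr1:128359706-128359875, minus strand) were added after their matches were seen, because each held overlapping matches on opposite strands, at 153 and 149 bases in Mcm5 and at 110 and 106 bases in Mcm6, which had another at 47.
Mcm3: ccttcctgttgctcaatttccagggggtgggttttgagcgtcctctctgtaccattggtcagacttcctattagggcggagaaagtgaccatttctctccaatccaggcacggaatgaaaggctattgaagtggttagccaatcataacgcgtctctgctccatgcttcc
Gins3: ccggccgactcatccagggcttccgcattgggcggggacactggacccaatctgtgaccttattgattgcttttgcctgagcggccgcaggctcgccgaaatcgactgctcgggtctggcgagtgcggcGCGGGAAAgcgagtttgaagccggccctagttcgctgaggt
Mcm5: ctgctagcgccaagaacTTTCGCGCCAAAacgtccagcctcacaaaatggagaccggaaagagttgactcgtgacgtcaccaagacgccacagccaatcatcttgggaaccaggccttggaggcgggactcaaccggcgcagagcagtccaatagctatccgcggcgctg
Mcm6: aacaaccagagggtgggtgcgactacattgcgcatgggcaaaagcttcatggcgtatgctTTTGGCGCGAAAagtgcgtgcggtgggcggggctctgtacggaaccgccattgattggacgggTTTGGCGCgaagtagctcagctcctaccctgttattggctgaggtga
Mcm5 fell by 1.27 and Mcm6, with 8.10, 8.21 and 8.25 in differentiation and 8.54, 8.98 and 8.72 in proliferation, did not pass the test. Mcm8, an MCM relative that acts in recombination and is not part of the ring, read 5.77, 6.16 and 5.93 in differentiation and 6.36, 7.11 and 6.75 in proliferation, a change of -0.79 that did not pass (adjusted p = 0.0937) although the groups did not overlap.

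Polymerase genes numbered 9, of which 5 fell, and their median change was -0.67. Pole, the catalytic subunit of the leading strand polymerase epsilon, changed most, with 6.31, 6.73 and 6.74 in differentiation and 8.03, 8.72 and 8.20 in proliferation. It was 3.30-fold lower, a change of -1.72 ± 0.20 (SE, n = 3 each; adjusted p = 0.00807), and passed with each array left out in turn (up to 0.0449). Its second subunit Pole2 fell by 0.99 (adjusted p = 0.0479). Pold1, the catalytic subunit of the lagging strand polymerase delta, read 8.11, 8.00 and 8.14 in differentiation and 8.52, 8.91 and 8.59 in proliferation, and fell by 0.59 (adjusted p = 0.0478). Its partners did not pass: Pold2 had a change of -0.48 (adjusted p = 0.102) and Pold3 one of 0.02 (adjusted p = 0.976). Pold3 was the single gene of the 56 with a positive value, at 8.67, 8.86 and 8.47 in differentiation and 8.47, 8.93 and 8.55 in proliferation. The ranges of its groups nearly coincided, and the 95% interval of the change ran from -0.35 to 0.39. In the polymerase alpha and primase complex, which lays down the RNA and DNA primers, Pola2 fell by 0.67 (adjusted p = 0.0311) and the small primase subunit Prim1 fell by 0.99 (adjusted p = 0.0492). Pola1 (-0.98, adjusted p = 0.0661) and Prim2 (-0.54, adjusted p = 0.123) were lower in all differentiation arrays and did not pass. The calls of Pola2, Prim1 and Pole2 ended without any array but proliferation replicate 1 (up to 0.148, 0.193 and 0.191), and that of Pold1 without any single array (0.0539 to 0.175). With cyclic loess between arrays Prim1 (0.0576), Pole2 (0.0528) and Pold1 (0.0614) did not pass. No E2F letters stood in the stretch of Pole2 (GRCm38.p6, chr12:69228191-69228360, minus strand), shown because Pole had no promoter entry, or in that of Pold3 (chr7:100121503-100121672, minus strand).
Pole2: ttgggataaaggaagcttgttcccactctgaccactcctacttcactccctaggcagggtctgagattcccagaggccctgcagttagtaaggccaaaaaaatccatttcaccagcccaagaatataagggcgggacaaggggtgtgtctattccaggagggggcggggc
Pold3: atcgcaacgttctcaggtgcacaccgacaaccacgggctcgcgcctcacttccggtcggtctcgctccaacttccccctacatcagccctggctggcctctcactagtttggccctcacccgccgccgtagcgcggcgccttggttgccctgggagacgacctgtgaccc

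The 6 genes of deoxynucleotide supply had a median change of -0.92, and 4 fell. Rrm2, the small subunit of ribonucleotide reductase and the one that limits the enzyme in S phase, had the largest change of the 56 genes. It read 7.68, 7.79 and 7.93 in differentiation and 9.40, 10.39 and 9.80 in proliferation, a change of -2.07 ± 0.24 (SE, n = 3 each), 4.19-fold lower (adjusted p = 0.00729). The proliferation arrays alone were spread over nearly 1 log2 unit. The large subunit Rrm1 read 9.40, 9.48 and 9.50 in differentiation and 10.10, 10.45 and 10.15 in proliferation, and fell by 0.77 (adjusted p = 0.0155). Thymidylate synthase (Tyms), which makes dTMP from dUMP, read 7.39, 7.65 and 7.46 in differentiation and 8.34, 8.60 and 8.50 in proliferation, and fell by 0.98 (adjusted p = 0.00685). Its SD was 0.13 in each group, and the call stood with each array left out in turn (up to 0.0478). Thymidine kinase (Tk1), which salvages thymidine, read 7.42, 7.28 and 7.51 in differentiation and 8.28, 8.87 and 8.56 in proliferation, and fell by 1.17 (adjusted p = 0.0114). A second cluster of Tk1 also fell, by 1.41 (adjusted p = 0.0103). Deoxycytidine kinase (Dck) read 7.12, 7.14 and 7.34 in differentiation and 7.72, 8.51 and 7.97 in proliferation, a change of -0.87 (adjusted p = 0.0681). Dut, whose product clears dUTP, read 7.35, 7.48 and 7.67 in differentiation and 7.72, 8.35 and 7.93 in proliferation, a change of -0.50 (adjusted p = 0.216). Neither passed. All 6 genes were lower in every differentiation array than in any proliferation array, as were 12.9% of all genes. The call of Rrm2 ended without differentiation replicate 1 (0.0511), that of Tk1 without differentiation replicate 1 or proliferation replicate 3 (up to 0.0674) and that of Rrm1 without differentiation replicate 1 or 2 or proliferation replicate 3 (up to 0.0909). The stretches of Rrm2 (GRCm38.p6, chr12:24708084-24708253, plus strand) and Dut (chr2:125247345-125247514, plus strand) held no E2F letters.
Rrm2: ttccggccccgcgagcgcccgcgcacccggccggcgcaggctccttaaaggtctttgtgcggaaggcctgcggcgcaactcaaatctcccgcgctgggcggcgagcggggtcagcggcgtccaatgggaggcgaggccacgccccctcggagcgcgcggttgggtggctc
Dut: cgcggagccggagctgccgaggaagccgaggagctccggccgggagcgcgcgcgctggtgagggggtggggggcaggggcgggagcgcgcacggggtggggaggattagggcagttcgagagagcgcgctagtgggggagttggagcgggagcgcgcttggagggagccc

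**Figure D2:**
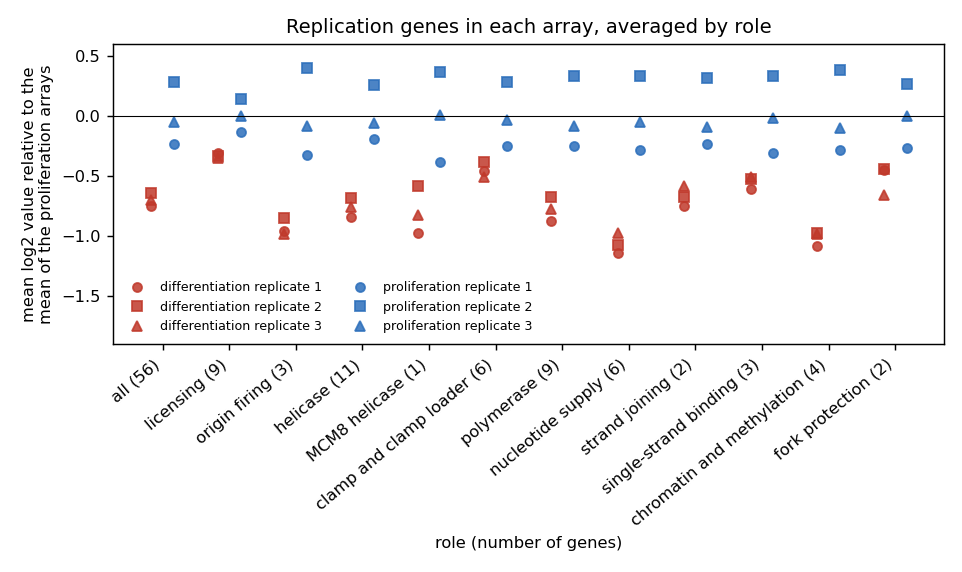
Mean over the genes of each role of the log2 value in each array, set to the role's proliferation mean (0), with differentiation in red on the left and proliferation in blue on the right of each role and marker shapes for replicates 1, 2 and 3. Proliferation replicate 2 is the highest array in every role, from 0.14 in licensing to 0.40 in origin firing, and every differentiation array lies below every proliferation array in the mean of all 56 genes.

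Set side by side, the medians of the 4 main roles were -0.22 for licensing, -0.78 for the helicase, -0.67 for polymerases and -0.92 for nucleotide supply, with 2 of 9, 6 of 11, 5 of 9 and 4 of 6 genes that fell. Of all genes, 2.97% fell. Differences between roles were not tested, since genes of a role are not replicates. In the arrays, the mean over the licensing genes was -0.31, -0.33 and -0.35 in differentiation and -0.13, 0.14 and 0.00 in proliferation, a gap that was small but clear of overlap. For the helicase it was -0.84, -0.68 and -0.76 in differentiation and -0.19, 0.26 and -0.06 in proliferation. For polymerases it was -0.87, -0.67 and -0.77 in differentiation and -0.25, 0.33 and -0.08 in proliferation. Without proliferation replicate 2 the medians were -0.15, -0.65, -0.57 and -0.79 in the same order of roles, and 1, 5, 2 and 4 genes fell. Without differentiation replicate 1 the counts were 0, 1, 1 and 1, so the roles no longer stood apart in them. The medians then were -0.23, -0.74, -0.62 and -0.87. When proliferation replicate 3 was left out the counts were 0, 4, 1 and 2. Without differentiation replicate 2 they were 0, 5, 1 and 3, without differentiation replicate 3 they were 2, 4, 1 and 4, and without proliferation replicate 1 they were 1, 6, 5 and 5.

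The sliding clamp and its loader, 6 genes, included 0 that fell, while 3 of the 6 were lower at an unadjusted p under 0.05 (9.64% of all genes) and 0 were higher. Pcna, the clamp itself, read 11.19, 11.28 and 11.30 in differentiation and 11.41, 11.86 and 11.65 in proliferation. All differentiation arrays were lower, but the change of -0.39 did not pass (adjusted p = 0.188), nor did the -0.40 of a second Pcna cluster (adjusted p = 0.196). Rfc4 had the largest change of the loader, -1.02, with 8.06, 8.22 and 7.99 in differentiation and 8.58, 9.68 and 9.06 in proliferation, and an adjusted p of 0.0945. Its proliferation arrays were spread over more than 1 log2 unit. Rfc1, the large subunit, read 8.35, 8.50 and 8.37 in differentiation and 8.50, 8.74 and 8.55 in proliferation, a change of -0.19 whose 95% interval ran from -0.42 to 0.04. Rfc3 (-0.53) did not overlap between groups, while Rfc2 (-0.34) and Rfc5 (-0.22) did.

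Of the genes that join the lagging strand pieces, DNA ligase 1 (Lig1) fell, with 7.71, 7.92 and 7.84 in differentiation and 8.38, 8.95 and 8.58 in proliferation, a change of -0.81 ± 0.15 (SE, n = 3 each; adjusted p = 0.0376). The call ended when proliferation replicate 3 or any differentiation array was left out (up to 0.164). The flap nuclease gene Fen1 read 6.44, 6.39 and 6.67 in differentiation and 6.83, 7.34 and 6.90 in proliferation, a change of -0.52 (adjusted p = 0.15) with no overlap. The 3 genes of replication protein A, which coats single-stranded DNA, had 0 that fell, while at an unadjusted p under 0.05 3 were lower (9.64% of all genes) and 0 higher. Rpa1 read 8.42, 8.44 and 8.34 in differentiation and 8.65, 9.13 and 8.79 in proliferation (-0.46, adjusted p = 0.134). Rpa2 was also without overlap (-0.57, adjusted p = 0.0874), and Rpa3 overlapped between groups (-0.61, adjusted p = 0.306). A second Rpa3 cluster was lower in every differentiation array and did not pass either (-0.32, adjusted p = 0.23). The fork protection genes Timeless (-0.44, adjusted p = 0.127) and Tipin (-0.60, adjusted p = 0.201) form a complex that travels with the fork. Timeless read 6.57, 6.41 and 6.47 in differentiation and 6.69, 7.10 and 6.98 in proliferation, and neither gene overlapped between groups or passed the test.

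Genes that restore chromatin behind the fork had a median change of -0.95, and 2 of 4 fell. Uhrf1, whose product recognises hemimethylated DNA, read 7.29, 7.35 and 7.63 in differentiation and 8.61, 9.60 and 9.04 in proliferation, a change of -1.66 ± 0.24 (SE, n = 3 each), 3.16-fold lower (adjusted p = 0.0156). Dnmt1, the maintenance methyltransferase that UHRF1 recruits, read 9.65, 9.68 and 9.51 in differentiation and 9.94, 10.32 and 10.03 in proliferation, a change of -0.48 that did not pass (adjusted p = 0.0859). Neither overlapped between groups. Chaf1b, the middle subunit of the histone chaperone CAF-1, read 7.33, 7.53 and 7.37 in differentiation and 8.34, 9.19 and 8.56 in proliferation, and fell by 1.29 (adjusted p = 0.0228). Chaf1a, the large subunit, had a change of -0.61 (adjusted p = 0.0637). The call of Uhrf1 ended without proliferation replicate 3 or differentiation replicate 1 or 2 (up to 0.0852), and that of Chaf1b without proliferation replicate 3 or any differentiation array (up to 0.112).

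Partners that act together were compared directly, as the difference of their log2 values in each array, in 6 pairs. Rrm2 minus Rrm1 was -1.72, -1.69 and -1.58 in differentiation and -0.69, -0.06 and -0.34 in proliferation, so the small subunit was lowered by 1.30 more than the large one. Pole minus Pold1 was -1.81, -1.27 and -1.40 in differentiation and -0.49, -0.20 and -0.38 in proliferation, a difference of changes of -1.13. Uhrf1 minus Dnmt1 was -2.36, -2.32 and -1.88 in differentiation and -1.33, -0.71 and -0.99 in proliferation, a difference of -1.18. In these pairs the difference of the group means exceeded the range of values within either group. The other pairs differed by less: -0.39 for Cdt1 minus Gmnn, -0.30 for Orc1 minus Orc2 and -0.30 for Tk1 minus Dck. Gmnn and Orc1 were dim, below the median cluster mean of 6.15 in both groups, so the sizes of change in their pairs are uncertain. In all 6 pairs every differentiation array was below every proliferation array, for which the exact two-sided permutation test gives p = 0.1 (0.1 adjusted over the 6 pairs), the smallest that 3 arrays against 3 allow, so none can pass 0.05. Probes of different genes can differ in how strongly they respond to a change of RNA, which was not tested, so these differences are of array values.

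**Figure D3:**
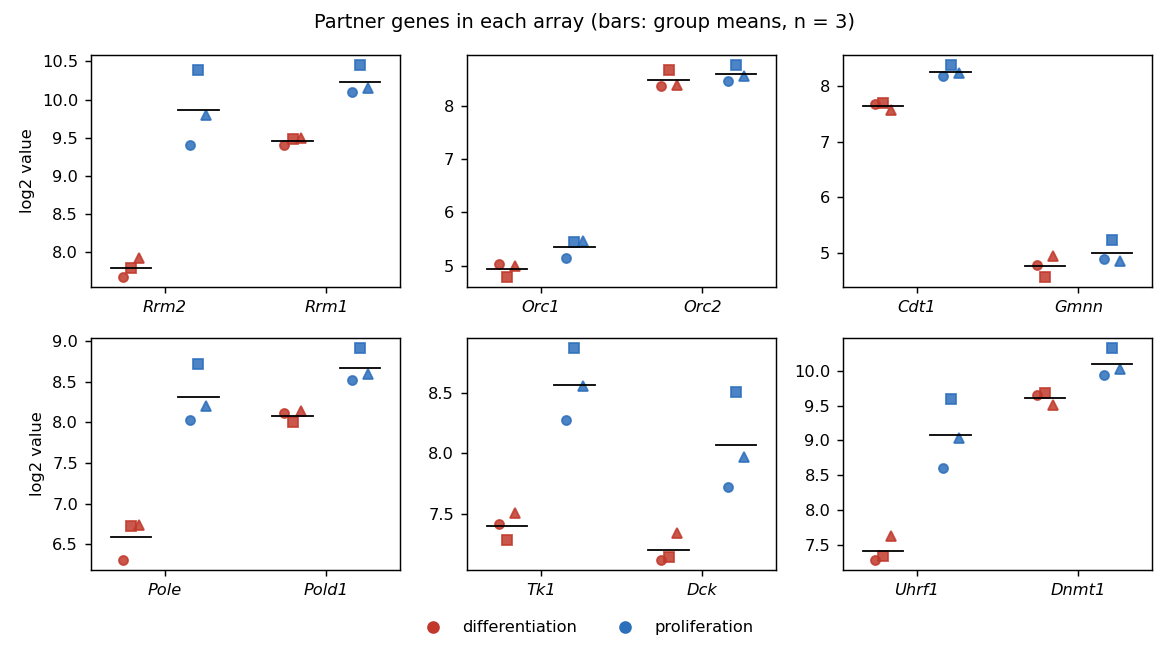
Log2 values in each array of both genes of the 6 pairs, with differentiation left of proliferation, marker shapes for replicates 1, 2 and 3 and bars for group means; each panel has its own y range. The distance between group means is larger for Rrm2 (-2.07) than Rrm1 (-0.77), for Pole (-1.72) than Pold1 (-0.59) and for Uhrf1 (-1.66) than Dnmt1 (-0.48).

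A further 55 genes of replication and nucleotide metabolism, listed by function, gave 53 that were measured. Of these 10 fell and 0 rose, against 2.97% and 2.94% of all genes, and the median change was -0.16. At an unadjusted p under 0.05, 23 were lower and 0 higher, against 9.64% and 9.49% of all genes. Among initiation and fork partners 3 of 9 fell: Ticrr, which helps load CDC45, at -1.95 (adjusted p = 0.00579), the polymerase alpha anchor Wdhd1 at -1.03 (adjusted p = 0.0244), and Clspn, the checkpoint mediator claspin, at -1.03 (adjusted p = 0.0134). Atad5, which unloads PCNA, fell by 0.78 (adjusted p = 0.0405), 1 of 4 in its class. Of other polymerase subunits and strand processing genes 2 of 9 fell, Top2a, a topoisomerase that untangles replicated DNA, at -2.27 (adjusted p = 0.00438), and the nuclease gene Dna2 at -1.16 (adjusted p = 0.015). In chromatin assembly 4 of 8 fell, with Asf1b, a histone chaperone, first at -1.83 (adjusted p = 0.00488), followed by the fork repair partners Mms22l (-0.75) and Tonsl (-0.69) and by Cdca7 (-0.53), which activates the remodeller HELLS. In the classes of nucleotide metabolism none passed of 9 further genes of deoxynucleotide supply and breakdown, 5 of pyrimidine synthesis and 9 of purine synthesis. At an unadjusted p under 0.05, 3, 0 and 1 of them were lower and 0 higher, against 9.64% and 9.49% of all genes. The medians were -0.16, -0.05 and -0.12, against 0.02 for all genes. In the 9, 5 and 9 genes the lowest changes were -0.49, -0.14 and -0.32. The difference between these classes and the 6 supply genes (median -0.92) was not tested.

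**Figure D4:**
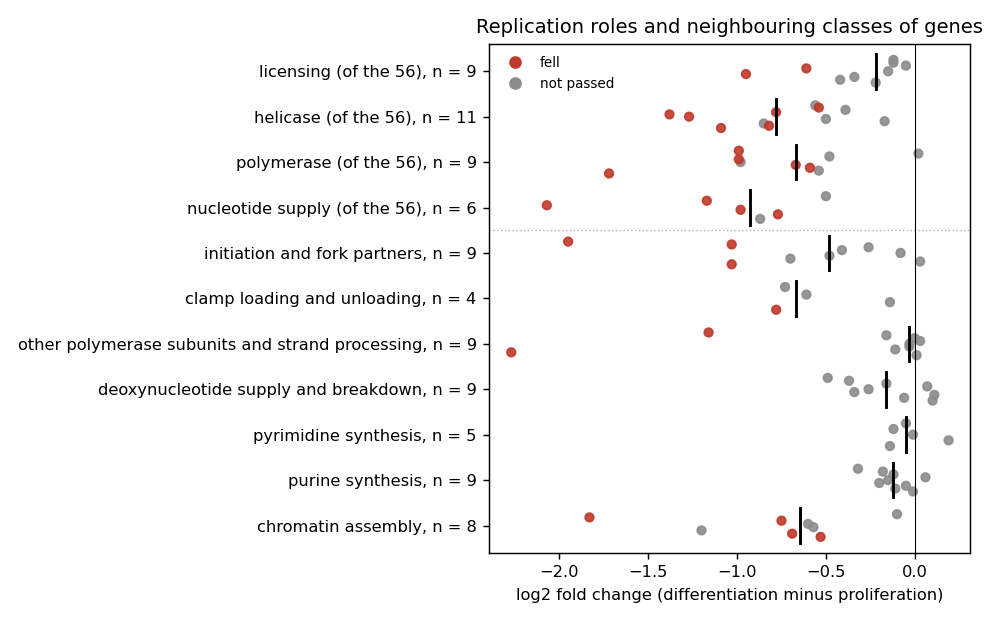
Log2 fold change of every gene in the 4 main roles (above the dotted line) and in the classes of the 53 other genes (below it), each point a gene, coloured by whether it passed the test and shifted vertically for view, with the median as a bar. The supply genes Rrm2, Tk1, Tyms, Dck, Rrm1 and Dut lie between -2.07 and -0.50, while purine and pyrimidine synthesis genes lie between -0.32 and 0.19. The further genes of deoxynucleotide supply and breakdown lie between -0.49 and 0.11.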

How the data were processed

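Per the labels and the methods, total RNA of 6 enterosphere samples was labelled with biotin and hybridised to 1 Mouse Gene 1.0 ST array each. The authors used AGCC 3.0 and Expression Console 1.0 for scanning and quality reports, and RMA in Partek Software 6.6 for normalisation. The deposited values are log2 RMA signals. RMA usually equalises array distributions, so a shift shared by most genes would not be seen. The genome build is not given in the sources used here, nor is the annotation version.

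Gene symbols came from the platform annotation, where 21789 of 35556 clusters had 1 symbol, 1621 several and 12146 none; the last 2 kinds named no gene. Groups were compared with limma 3.58.1 (R 4.3.3; lmFit, eBayes, group as the only term, two-sided, no filter, no pseudocount), p-values adjusted over every cluster (Benjamini-Hochberg) and a call at 0.05. The prior had 2.83 degrees of freedom. The steps were tested on simulated data. All 56 genes are named, with array values for the largest called, the smallest and any opposite change of each role and for the pairs; array values of further genes were chosen after they were seen. The genes and lists were chosen with earlier results of these data known. Alternatives were a replicate block, cyclic loess, median centring, limma-trend with robust estimation, a filter on dim clusters, array weights, the mean of a gene's clusters, the methods' t-test, a fold minimum of 1.5 and leaving out each array. Arrays carry no counts, so their number limits precision. Plots used matplotlib 3.10.9 (Python 3.11.15, pandas 2.3.3, scipy 1.17.1). Some listed genes are not reported here.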

Additional observations from a re-analysis of the deposited data

How the results depend on the processing

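No sign of a gene that fell changed under any alternative run, and only Pold3 and Orc3, neither of which passed, changed sign in some. For the genes that fell, many runs could not have turned the sign. Their groups did not overlap, so leaving out an array cannot turn it. The replicate block, limma-trend and the t-test reuse the same group difference. Limma-trend with robust estimation and median centring kept all 21 genes, and cyclic loess kept 18, with 2 polymerase genes. Only clusters at or above the median mean, or the clusters of a gene averaged, gave 32 genes that fell, the 21 and 11 more. Fewer features were tested in both. Calls over all features also grew, to 2112 and 1889, against 1459 clusters in the main run. Array weights gave 49 genes and 12721 clusters against 1459, with 4 licensing, 11 helicase and 8 polymerase genes; the weight was 7.45 for differentiation replicate 1 and 3.62 for proliferation replicate 3, and 0.397 to 0.491 for the others. The cause was not tested. The methods' t-test without correction at 1.5-fold gave 27 genes, and after Benjamini-Hochberg 0 genes (41 lower and 0 higher at an unadjusted p under 0.05) and 253 clusters. A minimum of 1.5-fold in limma gave 20.

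Same-numbered samples did not deviate together (r of -0.003, 0.09 and -0.074), and only proliferation replicate 2 correlated best with its own number. With so few arrays per group, these correlations cannot decide whether a number ties samples from a shared culture. The labels do not say so. The methods describe independent experiments, with picked spheres moved to either medium, which allows such pairing. The main test treated the samples as unpaired, and the replicate block gives the paired reading. With the replicate block 664 clusters were called, and 0 licensing and 3 polymerase genes fell; 16 of the 21 genes were kept, Cdc6, Cdt1, Gins2, Pola2 and Pold1 were lost and Mcm8 was gained.

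With each array left out, 3 (without differentiation replicate 1) to 25 (without proliferation replicate 1) genes fell, 0 to 2 in licensing, 1 to 6 in the helicase, 1 to 5 in polymerases and 1 to 5 in nucleotide supply, and 294 to 1297 clusters were called. Of the 21 genes, 3 passed in every case (Mcm3, Pole and Tyms).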
